A study of Mus musculus with 8 samples.

Results

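Oligo1c was 1 of 8 oligodendrocyte clusters of the aged mouse brain, and its members were all cells that carried this cluster name in the authors' deposited annotation. It held 3200 of 15604 oligodendrocytes, which came from 29631 cells of all types in 8 single-cell libraries made on the 10x Genomics 3′ platform. All libraries were from male mice of 24 months, and gray matter was frontal cortex while white matter was pooled from optic tract, medial lemniscus and corpus callosum. Wild-type mice, labelled C57BL/6, gave 2 gray and 2 white matter libraries, each a pool of animals. Rag1-/- mice, which lack the recombinase needed for mature T and B cells in every tissue from birth, gave 1 gray and 3 white matter libraries, of which white libraries 2 and 3 were each from a single mouse by the study's sample list. The labels' protocol instead has tissue of 2 samples joined for each library, so the number of mice behind a library is not settled. By that sample list, gray and white libraries of number 1, and of number 2 in wild type, came from the same mice. The labels give libraries of number 1 as batch 1 and the others as batch 2 of their genotype. Rag1-/- white libraries 2 and 3 thus share a batch, and library number stands for batch as well as mice. The strain label of the Rag1-/- libraries read NOD.129S7(B6)-Rag-1tm1Mom/J, whereas the study's methods gave the same allele on the C57BL/6J background. All mice were otherwise untreated, and live cells were sorted by exclusion of SYTOX Blue after dissociation with actinomycin D, which blocks new transcription.

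Mature oligodendrocytes wrap axons in compact myelin, a lipid-rich sheath built from a small set of abundant proteins, and also supply axons with metabolites. They are not uniform: in the mouse brain mature cells range from a state rich in Ptgds, the enzyme that makes prostaglandin D2, to states rich in Klk6, a secreted serine protease, S100b, a calcium-binding protein, and Hopx, a homeodomain protein that does not bind DNA. With age some white matter oligodendrocytes take on a reactive state marked by complement C4b and by the protease inhibitor Serpina3n, and the study named such cells age-related oligodendrocytes (ARO), beside interferon-responsive oligodendrocytes (IRO).

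Wild-type gray matter held 80 and 156 Oligo1c cells and wild-type white matter 109 and 922. Rag1-/- gray matter held 154 and Rag1-/- white matter 753, 351 and 675. The summed depth of a library was 676886 to 8086945 UMIs (unique molecular identifiers, counted molecules). The gray libraries (676886 to 1522045 UMIs) and wild-type white library 1 (1213986 UMIs) rest on fewer molecules than the other white libraries. Their values are less precise. Median depth per cell was 7517 to 11435 UMIs, and median mitochondrial share was 3.72 to 6.26%. In every library this depth was the lowest or second lowest among the clusters with 10 or more cells in that library. No Oligo1c barcode occurred in more than 1 library (0, against 21 among all oligodendrocytes). The oligodendrocyte label was met by its markers. Mog, a protein of the outer myelin surface, was at 1031 to 1283 CPM (UMIs of a gene per 1000000 UMIs of the library's Oligo1c cells) and Mobp, a protein of compact myelin, at 1703 to 2628 CPM.

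Markers of other cells were present at low levels that differed between libraries. The summed level of 10 oligodendrocyte markers was 52861 to 64679 CPM. That of 10 astrocyte markers was 238 to 366 CPM in wild-type gray, 139 to 144 CPM in wild-type white, 276 CPM in Rag1-/- gray and 157 to 234 CPM in Rag1-/- white matter. The 10 microglial markers summed to 1191 and 880 CPM in wild-type gray and white library 1, but to 121 and 97.0 CPM in library 2, and to 126 to 397 CPM in Rag1-/- libraries. The 8 neuronal markers summed to 15.9 to 23.7 CPM in gray and 0 to 6.67 CPM in white matter, and the 6 T cell markers found in the table, of 7 listed, to at most 24.0 CPM. Hemoglobin stood apart: 6 cells of wild-type gray library 2 held 16425 hemoglobin UMIs. In Rag1-/- mice low counts were widespread, with a hemoglobin UMI in 98.7% of gray matter cells (787 UMIs in all) and in 43.3, 41.0 and 15.7% of white matter cells, against 0 and 0.325% in wild-type white matter. Rag1 itself had 0 to 0.664 CPM in wild-type and 1.54 to 2.46 CPM in Rag1-/- libraries; whether these 3′ tags lie in the deleted part is not given in the sources used here, so they check no label.

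Oligo1c made up 28.2% (exact 95% interval 23.01 to 33.79) and 13.9% (11.96 to 16.1) of oligodendrocytes in the wild-type gray libraries. In wild-type white matter it made up 22.1% (18.5 to 26.0) and 22.5% (21.2 to 23.8). In Rag1-/- gray matter it made up 14.6% (12.5 to 16.9), and in Rag1-/- white matter 24.6% (23.1 to 26.2), 21.5% (19.5 to 23.6) and 17.5% (16.3 to 18.7). These intervals cover counting error only. The wild-type gray libraries lay on either side of all white matter values, so the wild-type groups overlapped. The share in white over gray matter differed by 0.13 on the log2 scale in wild type (SE 0.35, adjusted p = 0.807 by edgeR over the 8 clusters; two-sided exact permutation p = 1, where 2 against 2 libraries cannot go below 0.333). Rag1-/- and wild-type white matter differed by -0.07 (SE 0.31, adjusted p = 0.826; exact permutation p = 0.7, smallest possible 0.1). The share was higher in all 3 Rag1-/- white libraries than in the single gray library, by 0.54 (SE 0.41, adjusted p = 0.227; exact permutation p = 0.5, smallest possible 0.25).

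Within the set of Oligo1a, Oligo1b and Oligo1c cells, Oligo1c took 40.0 and 21.1% in wild-type gray and 47.6 and 50.7% in wild-type white matter. It took 20.2% in Rag1-/- gray and 49.7, 38.4 and 38.9% in Rag1-/- white matter. Here every white library lay above every gray library of its genotype. The same held for Oligo1a within this set. Oligo1b made up 25.7 to 39.1% of all oligodendrocytes in wild-type gray and 3.99 to 11.9% in wild-type white matter. In Rag1-/- it made up 43.2% in gray and 5.66 to 11.5% in white matter. The higher share within this set thus goes with a lower share of Oligo1b and is not particular to Oligo1c. The white-to-gray difference of Oligo1c within this set was 0.72 on the log2 scale in wild type (SE 0.38, edgeR adjusted p = 0.0906). In Rag1-/- it was 1.07, from a single gray library with the spread taken from the other groups. The exact permutation test could not go below 0.333 in wild type and 0.25 in Rag1-/-. As a share of all cells sequenced the Rag1-/- difference was 1.40, so its size depended on the denominator.

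**Figure D1:**
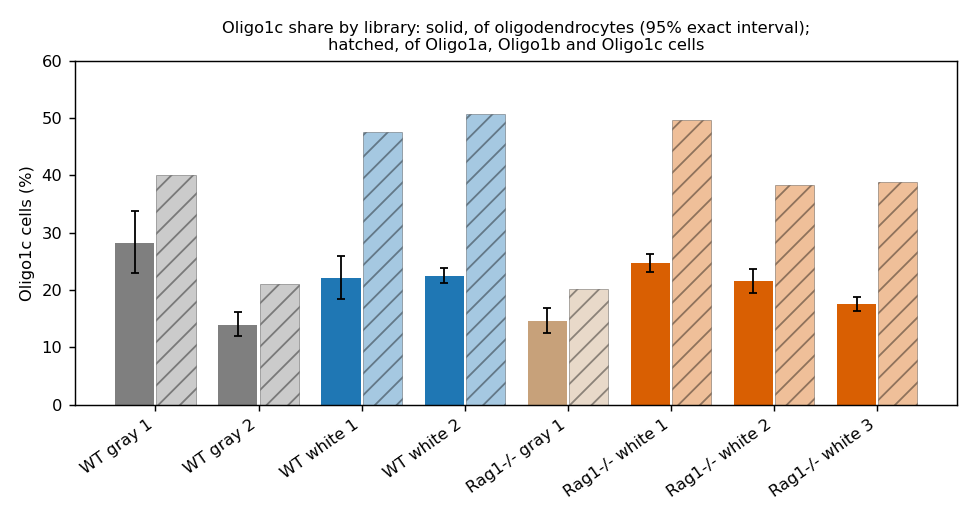
Oligo1c cells in percent (vertical axis) in each of the 8 libraries; solid bars are the share of all oligodendrocytes with exact 95% intervals, and hatched bars the share of Oligo1a, Oligo1b and Oligo1c cells. The hatched bars are higher in white than in gray libraries of the same genotype, whereas the solid bars of wild type overlap between tissues.

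Set against all other oligodendrocytes pooled, which include the Oligo2 clusters, Oligo1c was low for Oligo2 genes, as were Oligo1a and Oligo1b for Klk6, S100b and Hopx. Because the clusters were drawn from these same values, the following is a description with no test. Of 16999 genes, 0 were over 2-fold higher in the median library than in all other oligodendrocytes with the same sign in all 8 libraries and at 20 CPM or more, and 19 were over 2-fold lower. Klk6 was at 9.87 ± 8.18 CPM in Oligo1c (SD, n = 8 libraries) and 229 ± 169 CPM in the other cells, a median log2 ratio of -3.91. S100b was at 37.5 ± 17.1 against 400 ± 233 CPM (log2 ratio -3.12). Hopx was at 75.5 ± 42.5 against 316 ± 166 CPM (-2.02). The other lowest genes were the homeobox factor Nkx2-9 (-2.54), the ubiquitin hydrolase Uchl1 (-1.76), the transsulfuration enzyme Cbs (-1.54), Aven (-1.51) and the lipid droplet protein Plin3 (-1.48). Of 45 measured genes that the study listed for Oligo2 from its plate-based cells, 33 were lower in Oligo1c in all 8 libraries and 0 higher, with a median log2 ratio of -0.81. Over all 9141 genes at 5 CPM or more, 4.30% were lower and 5.91% higher in all libraries.

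The genes on the higher side differed less. Kcna2, a voltage-gated potassium channel subunit, was at 122 ± 16.9 CPM against 69.7 ± 8.90 CPM in the other oligodendrocytes (log2 ratio 0.75). Epha4, an ephrin receptor, was at 62.4 ± 6.1 against 35.1 ± 6.05 CPM (0.77). Sema6d, a transmembrane semaphorin, was at 381 ± 39.1 against 243 ± 45.3 CPM (0.65). The higher genes also included the polysialic acid synthase St8sia4 (0.79), the planar polarity protein Vangl1 (0.76), the endophilin Sh3gl2 (0.70), the nuclear envelope protein Syne1 (0.69), the actin regulator Wasf3 (0.69), the nuclear receptor Nr4a1 (0.65), C030029H02Rik (0.65) and 7630403G23Rik (0.64). None of these higher genes was among the 8 with the highest ratios against Oligo1a. Among the cytosolic ribosomal protein genes 28 of 77 were higher and 0 lower in all libraries, with a median log2 ratio of 0.12. Against Oligo1a alone 0 of the 77 were higher and 3 lower, with a median of -0.01. Of 30 myelin genes 8 were higher and 2 lower, with a median of 0.02.

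Kcna2 was at 116 ± 27.4 CPM in Oligo1a and lowest in Oligo2a (9.21 ± 5.22 CPM). In ARO it was at 120 ± 7.04 CPM over the 5 white matter libraries, where Oligo1c was at 99.9 to 143 CPM. Kcna2 thus did not set Oligo1c apart from Oligo1a or ARO. Ptgds placed Oligo1c between the other clusters. It was at 23800 ± 13276 CPM in Oligo1a and 19507 ± 9198 CPM in Oligo1b, at 6464 ± 2261 CPM in Oligo1c, and at 686 ± 514 CPM in Oligo2a. IRO was at 7096 ± 2023 CPM and ARO at 5970 ± 1119 CPM over the 5 white matter libraries, where Oligo1c was at 4743 to 7437 CPM. Oligo2b was at 4051 ± 2051 CPM. Whether Oligo1c differs from these clusters was not tested. Oligo1c was thus low for Klk6, S100b and Hopx like the other Oligo1 clusters, with a lower level of Ptgds than either of them in each of the 8 libraries.

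**Figure D2:**
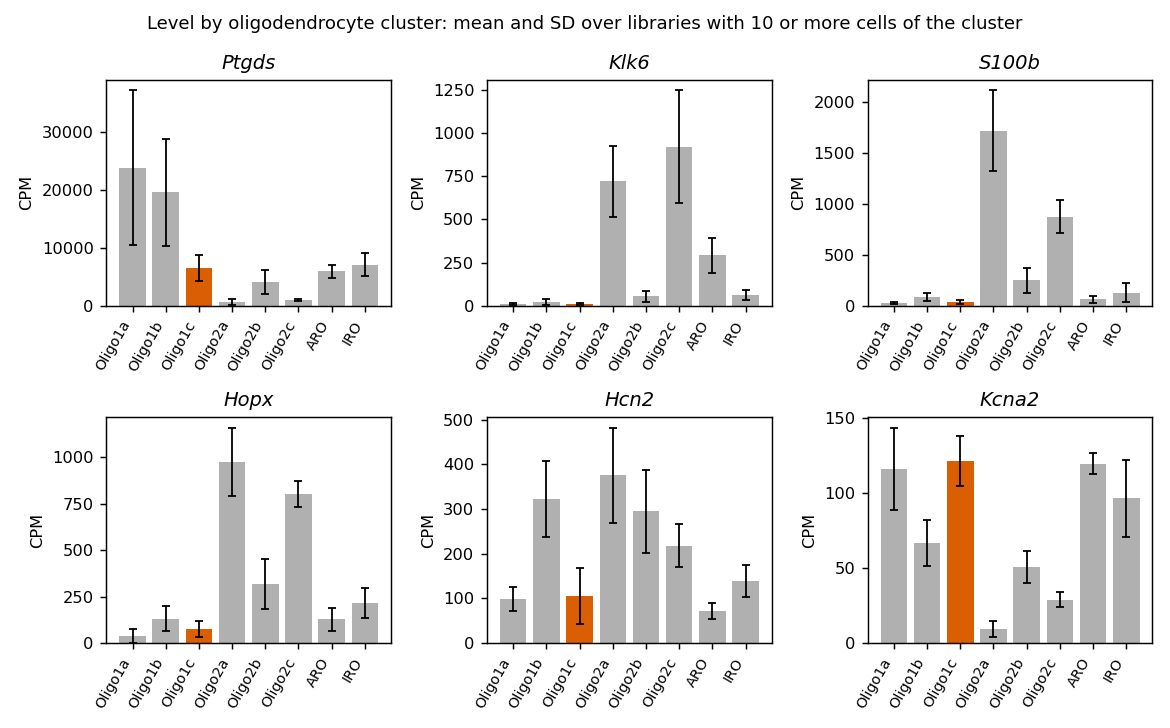
Level of 6 genes in CPM (vertical axes, linear, from 0) in the 8 oligodendrocyte clusters; bars are means and error bars SD over libraries with 10 or more cells of the cluster, with Oligo1c in orange. Oligo1c lies low for Klk6, S100b and Hopx, between the Oligo1a and Oligo2a levels for Ptgds, and close to Oligo1a and ARO for Kcna2 (122 CPM). The ARO, IRO and Oligo2c bars rest on white matter libraries only.

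Against Oligo1a alone, 2 genes were over 2-fold higher in Oligo1c and 3 over 2-fold lower. The higher pair was Hopx (log2 ratio 1.05) and Enpp6 (1.02), a choline phosphodiesterase best known from newly formed oligodendrocytes, and the next were Ccdc152 (0.78), the focal adhesion protein Tln2 (0.76) and the elastase inhibitor Serpinb1a (0.69). The lower genes were the adhesion molecule Cntn1 (-1.76; 9.61 ± 8.60 against 41.0 ± 15.6 CPM), Ptgds (-1.63) and the receptor tyrosine kinase Kit (-1.31; 14.9 ± 8.32 against 46.5 ± 20.4 CPM). Of 39 measured Oligo2 genes 13 were higher than in Oligo1a in all libraries, where 4.53% of all 9117 genes were, and 5 of 24 cholesterol synthesis genes were higher and 0 lower. Neither held against Oligo1b, where 2 of 42 Oligo2 genes were higher and 15 lower, and 0 of 24 cholesterol synthesis genes higher or lower. Against all other oligodendrocytes 0 of the 24 cholesterol synthesis genes were higher and 5 lower.

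Against Oligo1b, 1 gene was over 2-fold higher and 6 were over 2-fold lower. The higher gene was 7630403G23Rik (log2 ratio 1.28), followed by Kcna2 (0.84) and Epha4 (0.82). The lower genes included Hcn2 (-1.69; 106 ± 62.7 against 323 ± 84.9 CPM), a channel subunit opened by hyperpolarization, Ptgds (-1.42), Ogdhl (-1.32), an isoform of a 2-oxoglutarate dehydrogenase subunit, S100b (-1.13) and Sparcl1 (-1.07). Sparcl1 is also abundant in astrocytes, and 4 of 8 measured astrocyte markers were lower in Oligo1c than in Oligo1b in all libraries, where 1.90% of all 9104 genes at 5 CPM or more were. The part of RNA from other cells in these ratios was not tested.

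C4b, Serpina3n and H2-D1 were lower in Oligo1c than in the cluster each is known for. The ARO and IRO levels are from the 5 white matter libraries, the only ones with 10 or more of these cells. There C4b was at 523 to 1233 CPM in Oligo1c and at 1243 to 2499 CPM in ARO, lower in each of the 5 libraries, with the wild-type white libraries of Oligo1c (1090 and 1233 CPM) just under the lowest ARO library. Serpina3n was at 50.0 to 115 CPM in Oligo1c and at 474 to 919 CPM in ARO. H2-D1, an MHC class I heavy chain, was at 77.8 to 183 CPM in Oligo1c and at 923 to 2442 CPM in IRO.

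The comparison of white with gray matter in wild type asked whether Oligo1c cells of the same cluster differ by location. They did, for a number of genes that depended on the fit. The main fit, which does not pair libraries of the same mice, called 26 of 10541 genes. A fit that pairs them called 249. C4b and Serpina3n were about an order of magnitude higher in white matter, Hopx, Ldlrad4 and Nol3 were severalfold higher, and Hcn2, Ogdhl, Grm7, Ldhb and Timp3 were lower. By edgeR's quasi-likelihood test with Benjamini-Hochberg adjustment 12 of 10541 genes were higher (0.114%) and 14 lower (0.133%), in all 26 (0.247%), and 741 had an unadjusted p below 0.05. Of the 26 genes 22 had no overlap between the groups, as had 36.1% of all genes tested. The other 4 were hemoglobin genes, lower in white matter through the 6 cells of gray library 2. Without the wild-type cells that held a hemoglobin UMI 17 genes were called, 11 higher and 6 lower, all among the 26. Beside the hemoglobin genes, Timp3, Cyp2j6, 1700063D05Rik, Glul and H2-D1 then lost the call, with adjusted p values of 0.0519 to 0.0573. Within pools 22 of the 26 had the same sign in both pairs of libraries of the same mice, and 6023 of all 10541 genes did. A gene whose groups do not overlap must have the same sign in both pairs, so this adds nothing to the 22 above.

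Because gray and white libraries of a number came from the same mice by the sample list, the fit with a term for the pool bears on this count. This term is the labelled batch within each genotype, so it does not separate mice from batch. The fit called 249 genes (112 higher, 137 lower), all 26 among them, with 2 residual degrees of freedom. With a library left out, 4 genes were called without gray library 2 (4 of them among the 26), 10 without white library 2 (8), 15 without gray library 1 (12) and 18 without white library 1 (12). C4b, Serpina3n and Hcn2 were the 3 of 21 genes followed through these runs that were called in every one. Ldlrad4 and Ogdhl were called in 3 of the 4 runs. Gria4, Timp3, Cyp2j6, 1700063D05Rik, Eml1 and Glul were called in 0, and the other genes followed in 1 or 2. Cells were placed in Oligo1c by their expression, so a gene that separates clusters could vary only so far within it.

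C4b (chr17:34728380-34743882, minus strand, GRCm38) encodes complement component 4. It was at 104 and 112 CPM in the wild-type gray libraries and at 1090 and 1233 CPM in the white ones. In Rag1-/- mice it was at 40.1 CPM in gray and at 523, 621 and 656 CPM in white matter. Every white library of either genotype stood above every gray one. The wild-type difference was 3.44 on the log2 scale (SE 0.17, edgeR adjusted p = 7.05e-08), and reads shared with the near-identical C4a make the level uncertain. The rise was spread over the cells: with each cell thinned to 5000 UMIs, the median cell had 0 C4b UMIs in both wild-type gray libraries (quartiles 0 and 1), but 4.5 (2 to 8) and 6 (2 to 9) in the white ones. In Rag1-/- mice the median was 0 in gray and 2 in each white library.

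Serpina3n (chr12:104406729-104414329, plus strand) encodes a secreted inhibitor of serine proteases. It was at 5.95 and 9.30 CPM in wild-type gray and 85.4 and 115 CPM in wild-type white matter. It was at 4.09 CPM in Rag1-/- gray and at 53.3, 50.0 and 53.4 CPM in Rag1-/- white matter. The order of the groups was that of C4b, with no overlap. The wild-type difference was 3.66 (SE 0.28, edgeR adjusted p = 1.39e-05), and close relatives in the Serpina3 cluster make the level uncertain.

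H2-D1 (chr17:35262730-35267499, plus strand) was at 86.3 and 63.8 CPM in wild-type gray and 183 and 131 CPM in wild-type white matter. It was at 52.4 CPM in Rag1-/- gray and 77.8, 79.2 and 84.9 CPM in Rag1-/- white matter. Only the wild-type white libraries stood clear of the rest. Its wild-type tissue difference was 1.10 (SE 0.20, edgeR adjusted p = 0.0458), called in 1 of the 4 runs that left out a library, and reads shared with other class I genes make it uncertain. B2m, the light chain of class I molecules, was at 47.6 and 21.9 CPM in gray and 104 and 49.2 CPM in white matter, a difference of 1.19 that was not called (edgeR adjusted p = 0.374). With the pool term it was called (adjusted p = 0.000115), as with no filter on low counts (adjusted p = 0.000189). The microglial marker sum was high in the same number 1 libraries, and its part in B2m and H2-D1 was not tested.

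Serpina3n and H2-D1 were both called higher in white matter of wild type, and of the pair only Serpina3n was called in Rag1-/-. Their promoter windows are shown as annotated starts of transcription. They are RefSeq promoters (GRCm38.p6), and C4b had no entry. The first is chr12:104406458-104406757 and the second chr17:35262844-35263143, both on the plus strand. The H2-D1 window lies inside the gene interval given above and leaves out its start at 35262730. Capitals mark matches to the searched motifs, which were TTCNNNGAA, GAAANNGAA (interferon response), GGGNNTTCC (NF-kB) and TATAAA, each sought on both strands.
Serpina3n: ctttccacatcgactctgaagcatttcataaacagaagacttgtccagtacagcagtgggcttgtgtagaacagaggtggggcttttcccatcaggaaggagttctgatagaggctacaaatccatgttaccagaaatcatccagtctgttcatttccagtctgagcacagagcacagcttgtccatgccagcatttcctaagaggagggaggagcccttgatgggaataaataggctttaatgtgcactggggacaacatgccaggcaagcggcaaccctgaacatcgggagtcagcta
H2-D1: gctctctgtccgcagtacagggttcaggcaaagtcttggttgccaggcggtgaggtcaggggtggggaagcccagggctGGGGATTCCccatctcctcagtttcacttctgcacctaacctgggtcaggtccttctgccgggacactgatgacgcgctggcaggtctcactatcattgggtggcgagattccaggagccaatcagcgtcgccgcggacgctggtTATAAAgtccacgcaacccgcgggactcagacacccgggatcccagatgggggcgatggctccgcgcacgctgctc
The H2-D1 window held GGGNNTTCC at bases 80 to 88 and TATAAA at bases 225 to 230, and the Serpina3n window held none of the 4. Of 32851 promoters of this length 5.82% held GGGNNTTCC, 13.6% TATAAA, 8.3% TTCNNNGAA and 8.56% GAAANNGAA. A match is a description of letters and not a site. Other forms of these elements were not sought, so a missing match does not show that an element is absent.

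Among the other genes higher in white matter, Hopx (chr5:77086988-77115121, minus strand) was at 31.2 and 27.9 CPM in wild-type gray and 85.4 and 90.8 CPM in wild-type white matter. It was at 23.7 CPM in Rag1-/- gray and 95.5, 114 and 135 CPM in Rag1-/- white matter. Hopx was thus higher in all 5 white libraries than in the 3 gray ones, with a wild-type difference of 1.62 (SE 0.23, edgeR adjusted p = 0.00843). Ldlrad4, an inhibitor of TGF-beta signaling, was at 23.8 and 27.2 CPM in gray and 77.1 and 80.6 CPM in white matter of wild type (1.62, SE 0.19, adjusted p = 0.0021). In Rag1-/- mice it was at 44.2 CPM in gray and 86.7 to 93.8 CPM in white matter. Nol3, a repressor of apoptosis, rose by 1.81 and the scaffold protein Slc9a3r2 by 1.92. The AMPA receptor subunit Gria4 rose by 1.49, the matrix protein Sparc by 1.32 and the antisense transcript Gm48678 by 2.18. Ttr, the thyroxine carrier made by choroid plexus, was at 0 and 1.99 CPM in gray and 25.7 and 18.5 CPM in white matter. It is a marker of another tissue, and how far free RNA contributes to it was not tested.

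Among the genes lower in white matter, Hcn2 (chr10:79716634-79736108, plus strand) was at 232 and 159 CPM in wild-type gray and 58.0 and 62.0 CPM in wild-type white matter. It was at 130 CPM in Rag1-/- gray and 64.2, 72.6 and 71.9 CPM in Rag1-/- white matter. All 5 white libraries lay below all 3 gray ones, and the wild-type difference was -1.64 (SE 0.18, edgeR adjusted p = 0.00125). Ogdhl was at 134 and 71.1 CPM in gray and 26.5 and 19.99 CPM in white matter (-2.14), with 86.0 CPM in Rag1-/- gray and 19.3 to 30.2 CPM in Rag1-/- white matter. Grm7, a metabotropic glutamate receptor (chr6:110645581-111567230, plus strand), was at 32.7 and 28.6 CPM in gray and 8.29 and 8.12 CPM in white matter (-1.87), with 36.8 CPM in Rag1-/- gray and 7.71 to 10.8 CPM in Rag1-/- white matter. The deubiquitinase Usp31 was at 220 and 215 against 78.8 and 103 CPM (-1.20). In each of these genes the gray libraries of both genotypes stood apart from the white ones.

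Glul, the glutamine synthetase, was the most abundant of the named genes that fell, at 3079 and 2360 CPM in gray and 1703 and 1529 CPM in white matter of wild type. The difference was -0.72 (SE 0.14, edgeR adjusted p = 0.0474), and Rag1-/- libraries were at 2865 CPM in gray and 1468 to 1711 CPM in white matter. The lactate dehydrogenase subunit Ldhb fell by 1.71, the metalloproteinase inhibitor Timp3 by 4.23, the cytochrome Cyp2j6 by 1.26, the microtubule protein Eml1 by 0.89 and the long noncoding RNA 1700063D05Rik by 1.01. The Timp3 difference rests on 12 and 15 UMIs in wild-type gray and 1 and 5 UMIs in wild-type white libraries. Glul is also an astrocyte gene, and the astrocyte marker sum was higher in gray than in white wild-type libraries (238 to 366 against 139 to 144 CPM). The part of astrocyte RNA in these differences was not tested.

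**Figure D3:**
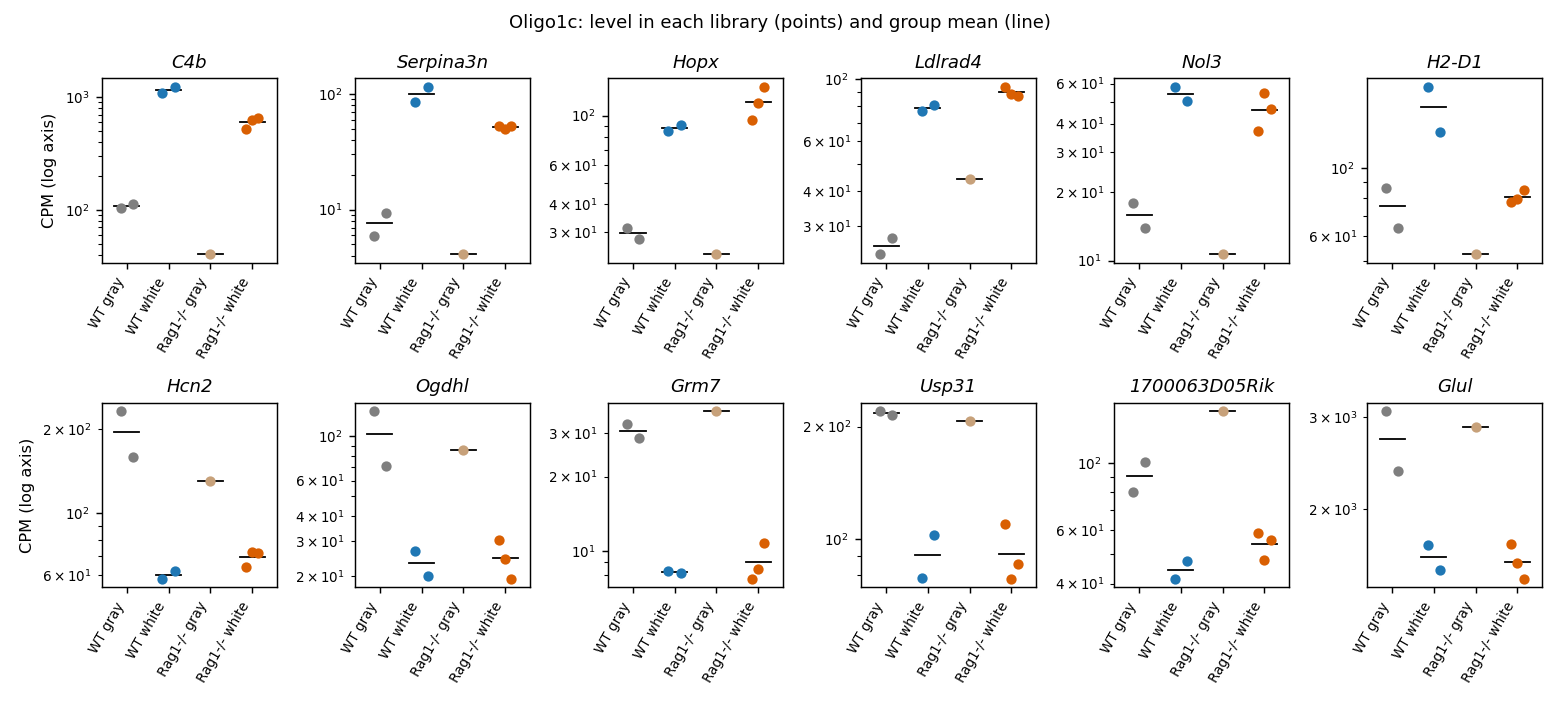
Level of 12 genes in CPM (vertical axes, logarithmic) in Oligo1c cells of each library (points), with the group mean (line), by genotype and tissue. In the 6 upper genes wild-type white libraries lie above wild-type gray ones, in the 6 lower genes below them, and the Rag1-/- libraries follow the same order in each panel.

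The gene groups are described by calls and signs in wild type, with no test of a group. Their calls are from the main fit without the pool term, and were not counted by group in the fit with it. Among 14 genes that the study listed for Oligo1, 0 were called and 1 had a positive difference (median -0.52). In Rag1-/- 0 of these 14 were positive (median -0.55). Among 19 heat shock and chaperone genes 0 were called and 17 were positive, against 2 in Rag1-/-. Of 12 tested genes of age-related oligodendrocyte reactivity 2 were higher in white matter (C4b and Serpina3n) and 0 lower, with a median log2 difference of 1.91. Of 87 tested genes that the study listed for ARO from its plate-based cells, 5 were higher (C4b, Serpina3n, Sparc, Slc9a3r2 and Nol3) and 0 lower, and 75 had a positive difference, with a median of 0.94. For all genes tested the median was -0.01 and 49.0% were positive, and 0.114% were called higher. Among 15 genes of glutamate handling and ion channels 1 was higher (Gria4) and 2 lower (Glul and Grm7), with a median of -0.20. H2-D1 was the 1 of 14 genes of MHC class I presentation, and the 1 of 17 IRO genes, that was called.

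No call was made by edgeR among 30 myelin genes (median 0.08), 25 of cholesterol synthesis (-0.14), 27 of fatty acid and sphingolipid synthesis (-0.12), 13 interferon-stimulated genes (0.23), 77 cytosolic ribosomal proteins (0.11) or 13 mitochondrially encoded genes (-0.18). A lack of calls does not show that these groups are alike in both tissues. All 13 mitochondrial genes had a negative and 62 of the 77 ribosomal genes a positive difference. Ptgds was at 11343 and 6566 CPM in gray and 7437 and 4743 CPM in white matter, so the libraries overlapped (-0.53, edgeR adjusted p = 0.614), although it was called with the pool term (adjusted p = 7.81e-07) and with no filter on low counts (adjusted p = 0.0052). Il33, an alarmin made by oligodendrocytes, was at 1358 and 1218 against 1631 and 1620 CPM (0.36, adjusted p = 0.513; with the pool term 0.0044).

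The same tissues were compared in Rag1-/- mice, whose libraries are separate from the wild-type ones. The direction of the wild-type genes recurred. The 26 genes called in wild type had the same sign in Rag1-/-, as had the 22 left without the hemoglobin genes, whereas 58.7% of all 10541 genes did. The gray side is 1 library, which is assumed to vary like the other groups. By edgeR 3 genes were higher (0.0285% of genes tested) and 2 lower (0.019%), in all 5 (0.0474%), with 764 at an unadjusted p below 0.05. All 5 were also called in wild type, and none overlapped between the tissues, as was the case for 65.5% of all genes tested against this single gray library. C4b was higher by 3.91 (SE 0.24, adjusted p = 1.45e-06), Serpina3n by 3.68 (SE 0.42, adjusted p = 0.00267) and Hopx by 2.29 (SE 0.29, adjusted p = 0.00507). Grm7 was at -2.01 (SE 0.30, adjusted p = 0.0212, and 0.0825 without white library 2) and 1700063D05Rik at -1.44 (SE 0.19, adjusted p = 0.0077). The latter was at 148 CPM in Rag1-/- gray and 58.5, 47.7 and 55.8 CPM in Rag1-/- white matter, and at 80.3 and 101 against 41.5 and 47.5 CPM in wild type.

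Hcn2 was at -0.89 in Rag1-/- (edgeR adjusted p = 0.209). With the term for the pool it was called (-1.02, adjusted p = 0.00103), as were 74 genes in all (29 higher, 45 lower). In that fit the Rag1-/- difference is that of white against gray library 1, from the same mice, so it rests on 1 library a side with the spread taken from the other libraries. Without white library 1 and without that term 58 genes were called. Of the 87 ARO genes 75 again had a positive difference, with a median of 0.78 beside 0.00 for all genes, and 2 were called. The test of the tissue difference of Rag1-/- against that of wild type called 0 of 10541 genes by edgeR (0%), with 334 at an unadjusted p below 0.05, and DESeq2 called 1.

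**Figure D4:**
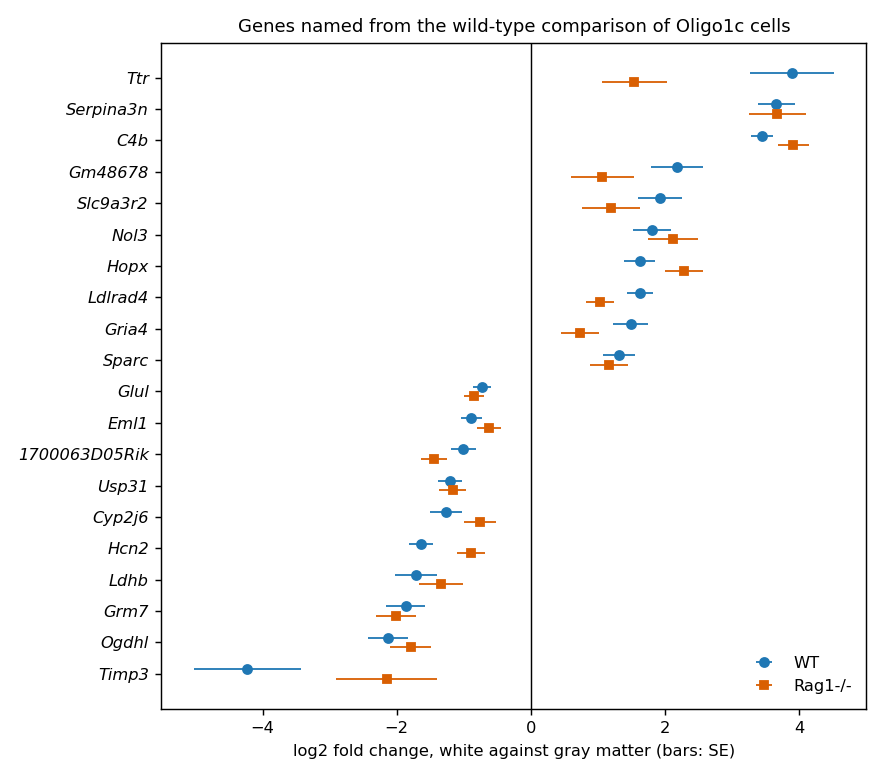
Log2 difference of white against gray matter (horizontal axis) in Oligo1c cells for the 20 genes named from wild type, in wild type (circles) and in Rag1-/- (squares), with bars for the SE. Each gene lies on the same side of 0 in both genotypes, with C4b and Serpina3n above 3 in both.

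The tissue difference of Oligo1c was then set against that of the clusters most like it, with the library as a block. Against Oligo1a 1 of 10955 genes differed by edgeR (0.00913%; 430 at an unadjusted p below 0.05), and this gene was Hcn2. In Oligo1a it was at 118 and 110 CPM in wild-type gray and 89.5 and 83.2 CPM in wild-type white matter, so the gray libraries of Oligo1c lay above those of Oligo1a and the white ones below. The difference of the differences was -1.11 on the log2 scale (SE 0.15, edgeR adjusted p = 0.0119). In Rag1-/- mice Oligo1a was at 153 CPM in gray and 72.1, 81.4 and 82.3 CPM in white matter, where Oligo1c was lower in all 4 libraries. The call was lost without gray library 1 (-0.99, adjusted p = 0.184), without white library 2 (-1.32, adjusted p = 0.723), with RLE size factors (-1.14, adjusted p = 0.0721) and with wild-type libraries alone (-1.20, adjusted p = 1). Against Oligo1b 0 of 10491 genes differed by edgeR (0%; 490 at an unadjusted p below 0.05), but 19 did without white library 1 and 347 without white library 2. C4b and Serpina3n were among the genes with no call in either comparison of clusters.

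**Figure D5:**
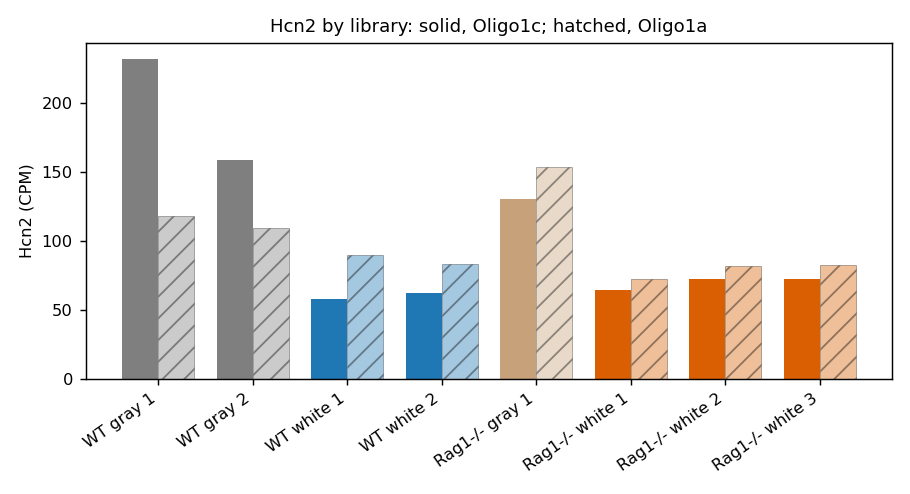
Hcn2 in CPM (vertical axis, from 0) in each library, in Oligo1c (solid bars) and Oligo1a (hatched bars). In wild-type gray libraries Oligo1c reaches 232 and 159 CPM where Oligo1a is at 118 and 110 CPM, and in the other 6 libraries Oligo1c is the lower of the pair.

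Rag1-/- and wild-type Oligo1c cells of white matter were compared to ask what changes without lymphocytes. The mice of each genotype were also processed in their own experiments, with their own Cell Ranger versions and gene filters, and their strain background is given in conflicting ways. These cannot be told apart from genotype. C4b, Serpina3n and H2-D1 were lower in Rag1-/- white matter. From the values given above, C4b differed by -0.91 (SE 0.13, edgeR adjusted p = 0.00085), Serpina3n by -0.94 (SE 0.16, adjusted p = 0.00473) and H2-D1 by -0.89 (SE 0.16, adjusted p = 0.00879). In each of the 3 genes both wild-type white libraries stood above all 3 Rag1-/- ones, and in gray matter both wild-type libraries stood above the Rag1-/- one. For Serpina3n the gray values rest on 4 and 14 UMIs in wild type and 5 in Rag1-/-, so their order is uncertain. The Serpina3n call was lost without wild-type white library 2 (adjusted p = 0.298), and that of H2-D1 without wild-type white library 1 (-0.64, adjusted p = 0.128) or Rag1-/- white library 2 (adjusted p = 0.0643).

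Cd44, the hyaluronan receptor, had 5 and 34 UMIs (4.15 and 4.25 CPM) in wild-type white libraries and 1, 0 and 0 UMIs in Rag1-/- ones (edgeR adjusted p = 0.0138). It passed the low-count filter in only 1 of the 5 runs that left out a library, where it was called. Cldn11, the claudin of myelin tight junctions, was at 3414 and 2982 CPM in wild-type and 2191, 2106 and 1789 CPM in Rag1-/- white matter (-0.62, SE 0.11, adjusted p = 0.00931), with no overlap. The call was lost without wild-type white library 1 (-0.50, adjusted p = 0.215) or Rag1-/- white library 3 (-0.55, adjusted p = 0.0529). It was the 1 of 30 myelin genes that was called, and the median of the myelin genes was -0.06. B2m was at -0.80 (adjusted p = 0.522).

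By edgeR 80 genes were higher and 17 lower in Rag1-/- white matter (97, or 0.92% of 10541; 587 at an unadjusted p below 0.05). All 97 had no overlap between the genotypes, as had 24.2% of all genes tested. Many of the differences were large. Of the 97 genes 60 differed over 4-fold, and 19 were at 1 CPM or less in 1 genotype. In gray matter 95 had the same sign, against 57.0% of all genes. Of the 92 called genes with a gene model, 48 (52.2%) overlapped exons of another gene on the same strand, and 8.65% of the genes tested did. Without genes that overlap another 36 of 9605 were called, 26 higher and 10 lower.

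Atp6v0c, the proton pore subunit of the vacuolar ATPase, was at 7.46 and 1.87 CPM in wild-type and at 523, 520 and 531 CPM in Rag1-/- white matter, and Ptp4a1, a protein phosphatase, at 478 and 468 against 3.16, 0.769 and 1.54 CPM. Rnasek, Fam89b, Mrpl53 and Hgs were likewise near 0 in wild type and at 22.6 to 419 CPM in Rag1-/- white libraries. Rnasek, Fam89b and Mrpl53 overlap exons of another gene on the same strand, as do Cpne1, Tnfsf13, Nudt8, Nanp and Zbtb9. These 5 had 0 UMIs in wild-type white matter, and if 3 counts are taken as the floor for the summed group, Cpne1 was at least 49.7-fold, Tnfsf13 at least 47.9-fold, Nudt8 at least 22.1-fold, Nanp at least 14.9-fold and Zbtb9 at least 14.5-fold higher in Rag1-/-. Gm43713 was at least 57.6-fold lower. Fam220a, Amd2, Rps6ka4, Coro1b, 4933427D14Rik and Taf6l were also lower, and of these Rps6ka4 and Coro1b overlap another gene. The part of overlapping gene models in these differences was not tested gene by gene. The calls of Nudt8 and 4933427D14Rik were lost without wild-type white library 2 (adjusted p = 0.194 and 0.277). Reads that Amd2 shares with near-identical copies make its level uncertain.

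Of the gene groups, 3 of 12 genes of age-related reactivity were lower (C4b, Serpina3n and Cd44), with a median of -0.48, and the same 3 were the called ones of 87 ARO genes (median -0.21). For all genes the median was 0.00, and 0.161% were called lower. No call was made among 13 interferon-stimulated genes (median -0.17) or 17 immediate early genes (-0.28), and 1 of 17 IRO genes was called (H2-D1; median -0.62). All 13 mitochondrially encoded genes had a positive difference (median 0.44) and 1 was called, mt-Atp8 (1.25). Over all genes tested 49.7% were positive and 0.759% were called higher. The T cell marker sum was 5.50 and 24.0 CPM in wild-type and 0.769 to 1.20 CPM in Rag1-/- white libraries, and its part in the lower genes was not tested. Set against Oligo1a, the genotype difference of Oligo1c differed in 0 of 10955 genes by edgeR (0%; 248 at an unadjusted p below 0.05).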

How the data were processed

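UMI counts per gene and cell were deposited by the authors as whole numbers without normalization, from 10x 3′ libraries of 8 samples. Per the study's methods the authors ran Cell Ranger with a version for each experiment (the submitters' processing notes give Cell Ranger 4 and build mm10), filtered cells and genes, integrated both genotypes in Seurat and named the clusters. The authors set upper bounds on UMIs, and in most experiments on genes, per cell, and from the Rag1-/- data they dropped a small group of cells rich in microglial genes. No doublet caller is named in the sources used here and none was run, so doublets may remain. Files of microglia were not used here. Counts of the 3200 Oligo1c cells were summed per library, which is the replicate; cells were not. Only the 16999 genes listed for both genotypes were kept, without 2 ribosomal RNA genes; they held 98.5% of Oligo1c UMIs. CPM are UMIs per 1000000 of the summed UMIs.

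The main test was edgeR 4.0.16 in R 4.3.3 (quasi-likelihood, TMM, filterByExpr by group) over all 8 libraries with 1 term per group, Benjamini-Hochberg adjustment over 10541 genes and an adjusted p below 0.05 as the call. The SE is the log2 difference over the root of the F statistic. Cluster differences used sums per library and cluster with the library as block. Shares were tested in edgeR over 8 clusters and by exact permutation. Log2 ratios between clusters used a pseudocount of 5 CPM and were not tested. Alternatives were DESeq2 1.42.0, RLE factors, no filter, fewer libraries and a term for the pool. The methods were tested on simulated data. Pool numbers pair gray and white libraries of the same mice (correlation of deviations 0.29 in wild type) but not genotypes (-0.16 to 0.01), so the main fit used no pairing across genotypes. The pool term was the labelled batch within each genotype. For the comparison of genotypes the alternative instead used the batch number over both genotypes, which joins libraries of separate experiments.

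Genes named were the 10 highest and 10 lowest called differences without overlap, the 12 highest and 8 lowest cluster ratios (8 and 8 against Oligo1a and Oligo1b), called list members and a fixed set of marker genes. The members and lists were chosen with earlier results of these data known. A gene that met the rule but carries a clone accession as its symbol is counted and not named. The ribosomal list, set by symbol, was cleared of kinases, Rps19bp1, Rpl7l1 and pseudogenes after its values were seen. A few other genes that met the rule are not reported here. Positions are from GENCODE vM21 (GRCm38). P values measure the spread between these libraries.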

Additional observations from a re-analysis of the deposited data

Results flagged for a closer look

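Hcn2 was the gene whose tissue difference differed between Oligo1c and Oligo1a by a test of that difference itself. White minus gray matter in wild type differed by -1.11 on the log2 scale between Oligo1c and Oligo1a (SE 0.15, edgeR adjusted p = 0.0119), with the gray libraries of Oligo1c above and its white libraries below those of Oligo1a. The call was lost without gray library 1 (adjusted p = 0.184) or white library 2 (0.723), with RLE factors (0.0721) and in wild-type libraries alone (adjusted p = 1), and in Rag1-/- gray matter Oligo1c (130 CPM) lay below Oligo1a (153 CPM). The groups held 1 to 3 libraries, too few for Dixon's test of a single library, which was not run.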

How the results depend on the processing

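The numbers of calls moved with the settings in each comparison of genes that was rerun. Of the calls of white against gray matter in wild type, 26 became 154 with no filter on low counts, 249 with the replicate block (the pool term) and 17 without wild-type cells with a hemoglobin UMI, and leaving out a library gave 4 to 18. The genotype calls in white matter, 97, became 189 with no filter and 36 without overlapping gene models, and leaving out a library gave 69 to 135. The tissue calls in Rag1-/-, 5, became 20 with DESeq2, 87 with no filter and 74 with the replicate block, and 4 to 58 when a library was left out. For the tissue difference between genotypes the 0 calls by edgeR (334 at an unadjusted p below 0.05) became 1 with DESeq2, 10 with no filter and 5 with the replicate block, and 0 to 4 when a library was left out. Against Oligo1a the 1 call became 3 with no filter, 0 with RLE factors and 0 in wild-type libraries alone, and 0 to 16 when a library was left out. Against Oligo1b the 0 calls (490 at an unadjusted p below 0.05) became 38 with no filter and 0 to 347 when a library was left out. With cells thinned to 5000 UMIs, 4 rather than 7 genes were over 2-fold from Oligo1b. The cause of these changes was not tested.

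The wild-type tissue difference in share turned from 0.13 to -0.14 with TMM over cluster numbers, and ran from -0.34 (without gray library 2) to 0.68 when a library was left out. That between genotypes ran from -0.19 to 0.052 (without Rag1-/- white library 3). That of tissues in Rag1-/- was 1.40 of all cells, 1.07 of Oligo1 cells and 0.42 to 0.66 when a library was left out. None of the genes followed through the alternatives, in the 3 group comparisons and Hcn2 against Oligo1a, changed its direction. The genes named from cluster ratios were not followed. The depth of the gray libraries and of wild-type white library 1, and having 2 libraries a tissue, limit the wild-type tissue comparison. The single Rag1-/- gray library limits the one in Rag1-/-. Alternatives for which a group would be empty, and the genotype interaction with fewer groups, which equals the fit as reported, were not run. The settings on hemoglobin, overlapping gene models and genes seen in every library, and the genotype difference between clusters, were chosen after seeing the data.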
